A study of Mus musculus with 28 samples.

Results

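The genes described here are cell cycle and proliferation genes, 42 mouse symbols chosen by their known roles, with earlier results of these data known. They cover the MCM helicase and other replication genes, the mitotic cyclins and kinases, and the genes of checkpoint, centromere, spindle and cytokinesis. Of these, 41 have a row among the 14617 genes of the deposited table. The symbol H2afz has no row of that name, but RefSeq lists it as an older name of H2az1, a histone variant gene that has a row and is given separately. By role, 14 members act in replication and nucleotide supply, 6 are cyclins and kinases of mitotic entry, 5 act in the spindle checkpoint and the anaphase-promoting complex, 3 are chromosomal passengers, 3 belong to the centromere, 7 to spindle and cytokinesis, and 3 of those with a row to chromatin.

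The study profiled macrophages of the mouse brain after bone marrow transplantation. Every host was a Cx3cr1 gfp/+ mouse that had been lethally irradiated, and every donor marrow carried the floxed human allele hDNMT3A fl/fl. The Mutant groups received marrow that also carried Vav-Cre, which is active in blood-forming cells, and the Control groups received hDNMT3A fl/fl marrow without Cre. At 16 weeks after transplantation, cells without GFP and cells with GFP were sorted from the leptomeninges and from the parenchyma. Those without GFP were taken as cells of the donor marrow, and those with GFP as cells of the host. The 8 groups are thus Mutant and Control donor leptomeningeal cells, Mutant and Control host leptomeningeal cells, Mutant and Control donor microglia, and Mutant and Control host microglia, where "donor microglia" is the labels' monocyte-derived group. Donor microglia libraries also held neuron, astrocyte and oligodendrocyte transcripts, given below, so not all of their RNA is shown to come from donor cells. Host leptomeningeal cells have 2 libraries per genotype and the other groups have 4, which makes 28 libraries of at most 100000 sorted cells each. The labels do not say that libraries come from separate mice, so the p-values below describe variation among libraries, which may be technical. Mice were perfused and the tissue was digested with actinomycin D present, an inhibitor of transcription.

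Dividing cells switch on these genes in waves. The MCM2-7 proteins form the helicase that is loaded on DNA in G1, PCNA is the sliding clamp of the replication fork, and RRM1, RRM2, TYMS and TK1 supply deoxynucleotides. Later, cyclins A2, B1 and B2 with CDK1, PLK1 and Aurora kinases drive entry into mitosis, CDC20 and UBE2C work with the anaphase-promoting complex, and KIF23, PRC1 and Aurora B act at the spindle midzone and in cytokinesis. Resting tissue macrophages of the brain divide rarely, whereas myeloid progenitors divide often, and replication genes such as Pcna are also used in DNA repair.

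RNA was counted with MARS-seq, which tags the 3′ end of each transcript molecule with a unique molecular identifier (UMI). Libraries held 479077 to 3066506 UMIs, with a median of 1634653.5, and levels are given as CPM, a gene's UMIs scaled to the library's total. The level that 3 UMIs give, which is the limit for a gene counted at 0, ran between 0.978 and 6.26 CPM over the libraries and covers counting error only. These are bulk libraries, so a larger share of cells with a transcript and more of it per cell cannot be told apart. Each library was compared with marker lists of 10 genes per cell type. All 10 microglia markers were detected in each of the 4 populations. Microglia markers made up 0.179 to 0.315% of UMIs in donor and 0.628 to 1.12% in host leptomeningeal libraries. The mature neutrophil list took 2.62 to 6.39% in donor leptomeningeal libraries. S100a9, an abundant neutrophil gene, averaged 22637.1 CPM in donor leptomeningeal cells against 1421.6 CPM in host leptomeningeal cells. The labels call the donor leptomeningeal group macrophages, and the data show neutrophil transcripts in every library of it. Border macrophage markers took 0.268 to 0.503% of UMIs in donor and 0.956 to 1.33% in host leptomeningeal libraries. In Control host leptomeningeal library 1 the microglia markers, at 1.12%, exceeded the border macrophage markers, at 0.956%. Mouse Dnmt3a did not pass the test between genotypes in any population (log2 fold changes of -0.14 to 0.04), and since the allele is human and the counts were made on the mouse genome, this does not check the genotype labels.

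Promoters of the members are shown because the mitotic members were higher together in donor leptomeningeal libraries. RefSeq (GRCm38.p6, the assembly also called mm10) gave a promoter for 34 of the 41 members, and the 250 bases before 1 start per gene were searched on both strands. Motifs were the CCAAT box (CCAAT), which the factor NF-Y binds, the cell cycle homology region (TTTGAA or TTCGAA), known from genes of the G2 and M phases, and an E2F-type motif (TTTCCCGC, TTTCGCGC, TTTGCCGC or TTTGGCGC). The CCAAT box stood in 29 of 34 member promoters (85.3%) and in 34.2% of all 27025 promoters of that length. The homology region stood in 10 of 34 members (29.4%) and in 17.4% of all promoters, and the E2F-type motif in 3 of 34 (8.82%) and in 1.96%. Among members that do not act in replication, Stmn1 and Hmgb2 left out, 8 of 21 held a homology region and 19 of 21 a CCAAT box, against 1 of 12 and 9 of 12 among replication members. Matches of different motifs overlapped in 0 of the 34. A match of letters is a description and not a shown binding site. The 4 promoters below belong to 3 mitotic genes with large differences between donor and host leptomeningeal cells and to Mcm3, a replication gene with a small one there, with matches to any of the motifs in capitals.
Cdc20 promoter, chr4:118437344-118437593, minus strand: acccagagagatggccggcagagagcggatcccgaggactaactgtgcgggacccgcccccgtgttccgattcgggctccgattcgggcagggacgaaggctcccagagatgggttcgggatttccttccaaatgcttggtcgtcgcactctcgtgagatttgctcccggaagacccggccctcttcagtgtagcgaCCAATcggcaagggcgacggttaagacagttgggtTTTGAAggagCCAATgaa
Top2a promoter, chr11:99024190-99024439, minus strand: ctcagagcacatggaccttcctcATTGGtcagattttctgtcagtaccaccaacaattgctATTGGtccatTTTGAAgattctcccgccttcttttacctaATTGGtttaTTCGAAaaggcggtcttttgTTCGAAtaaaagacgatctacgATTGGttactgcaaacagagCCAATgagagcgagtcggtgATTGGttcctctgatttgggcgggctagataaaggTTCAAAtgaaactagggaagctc
Ccnb2 promoter, chr9:70421555-70421804, minus strand: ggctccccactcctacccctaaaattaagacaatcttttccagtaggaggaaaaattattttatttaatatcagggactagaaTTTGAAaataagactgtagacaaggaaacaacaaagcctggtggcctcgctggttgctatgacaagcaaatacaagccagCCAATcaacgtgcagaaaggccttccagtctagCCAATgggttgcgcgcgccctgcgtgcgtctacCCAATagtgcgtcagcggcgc
Mcm3 promoter, chr1:20820313-20820562, minus strand: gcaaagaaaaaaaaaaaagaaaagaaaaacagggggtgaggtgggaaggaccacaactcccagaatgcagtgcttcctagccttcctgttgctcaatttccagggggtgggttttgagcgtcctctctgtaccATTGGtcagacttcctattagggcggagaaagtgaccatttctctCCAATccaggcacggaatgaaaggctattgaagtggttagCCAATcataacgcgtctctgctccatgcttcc
Cdc20 has a homology region match that begins 18 bases before its start and lies between 2 CCAAT boxes. Top2a has 4 homology region and 6 CCAAT matches, Ccnb2 has 1 and 3, and Mcm3 has 3 CCAAT boxes and no homology region in this window.

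The members took the largest share of RNA in donor leptomeningeal cells. Together they made up 0.133, 0.107, 0.198 and 0.133% of UMIs in Mutant donor leptomeningeal libraries 1 to 4, and 0.124, 0.261, 0.169 and 0.197% in the Control ones. Host leptomeningeal libraries held 0.0573 and 0.0473% (Mutant) and 0.0521 and 0.0503% (Control). Donor microglia held 0.0441, 0.0435, 0.0463 and 0.0435% in Mutant and 0.0547, 0.0508, 0.0594 and 0.0903% in Control libraries. Host microglia held 0.0460, 0.0501, 0.0458 and 0.0487% in Mutant and 0.0453, 0.0446, 0.0467 and 0.0434% in Control libraries. Every donor leptomeningeal library thus lay above every other library, whereas the other 3 populations overlapped. The make-up also differed: the summed CPM of the 14 replication members was 0.504 to 0.743 times that of the 23 mitotic members (those outside replication and chromatin, without Stmn1) in donor leptomeningeal libraries and 1.67 to 2.56 times in host leptomeningeal ones. The same quotient was 0.963 to 1.97 in donor microglia and 3.29 to 5.59 in host microglia, where replication members therefore made up most of the signal.

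**Figure D1:**
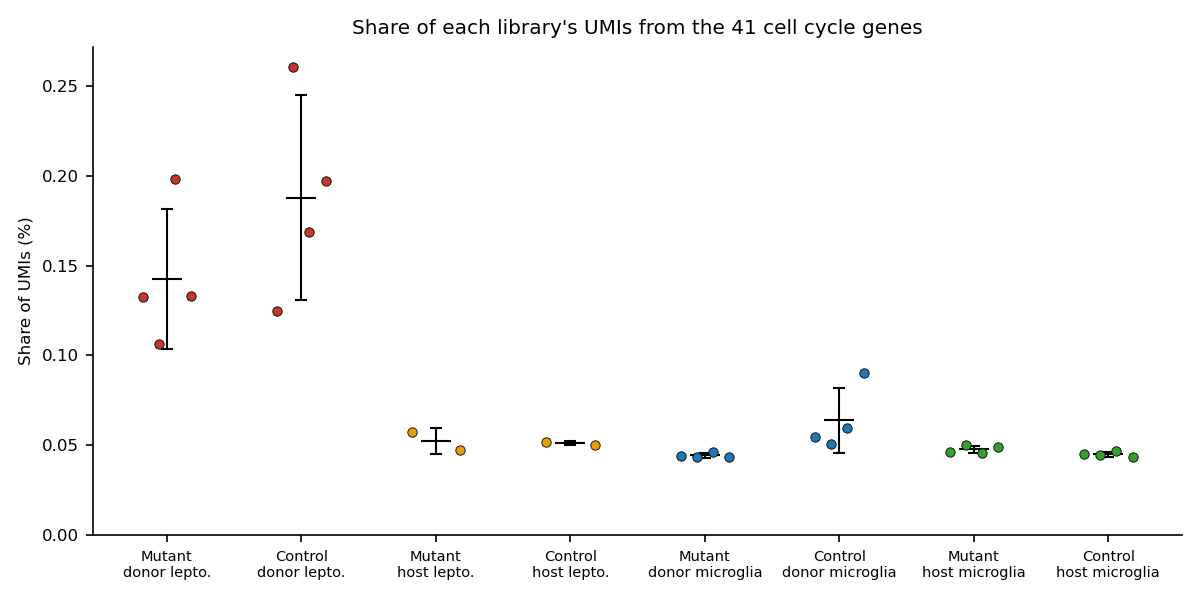
Share of each library's UMIs that came from the 41 cell cycle genes (vertical axis, percent) for the 8 groups, with 1 point per library and bars for mean ± SD. The 8 donor leptomeningeal libraries sit between 0.107 and 0.261%, above all others, and Control donor microglia library 4 stands at 0.0903%.

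In the leptomeninges, donor cells had higher levels than host cells for 39 of the 40 members that passed the low-count filter, and for none lower (edgeR's quasi-likelihood test, adjusted p under 0.05 over 12327 genes). Over all genes tested, 16.9% were called higher in this comparison and 13.3% lower. Because 12 of the 40 passed the filter only through the donor leptomeningeal libraries, where they are high, the 28 that pass without those libraries are the fairer count, and 27 of them were higher. The median log2 fold change of these 28 was 2.39, against 0.01 over all genes. The remaining member, Pcna, had a log2 fold change of 0.25 ± 0.11 (SE, adjusted p = 0.0707), and it passed with DESeq2's Wald test (0.26, adjusted p = 0.0476) and without Control host leptomeningeal library 2 (0.38, adjusted p = 0.0165). Cenpf, a kinetochore gene, was too low to be tested and averaged 2.95 CPM in donor and 1.02 CPM in host leptomeningeal cells. The libraries of the populations did not overlap for 21 of the 28 members, against 7.50% of all genes.

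The medians by role, taken over those 28 members, were higher for mitotic than for replication genes, a difference that was not tested. The median log2 fold change was 3.18 for 4 cyclins and kinases, 3.61 for 3 checkpoint genes, 2.99 for 3 chromosomal passengers and 2.44 for 3 spindle genes, and 1.05 for 11 replication genes. Cdc20, which activates the anaphase-promoting complex, had 24.7, 26.97, 38.5 and 28.6 CPM in Mutant and 23.3, 50.2, 36.1 and 40.95 CPM in Control donor leptomeningeal libraries. Host leptomeningeal libraries had 10.04 and 2.03 CPM (Mutant) and 2.38 and 1.14 CPM (Control). The populations did not overlap, and the log2 fold change was 3.61 ± 0.35 (adjusted p = 1.44e-11), which became 4.31 without Mutant host leptomeningeal library 1, the highest of the host ones.

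Top2a, the topoisomerase that untangles sister chromatids, had 81.8, 60.1, 108 and 71.5 CPM in Mutant and 58.6, 158, 111 and 117 CPM in Control donor leptomeningeal libraries. It had 11.04 and 6.78 CPM in Mutant and 7.92 and 12.5 CPM in Control host leptomeningeal libraries. All 8 donor libraries were above all 4 host libraries, by a log2 fold change of 3.60 ± 0.30 (adjusted p = 1.06e-10). Mki67, the gene of the proliferation marker Ki-67, averaged 83.0 ± 39.1 CPM in donor and 13.9 ± 4.72 CPM in host leptomeningeal cells (SD, n = 8 and 4), a log2 fold change of 2.82 ± 0.42. Ccnb2, a cyclin partner of CDK1, averaged 68.3 ± 25.7 CPM in donor and 6.18 ± 2.37 CPM in host leptomeningeal cells, and its log2 fold change was 3.77 ± 0.37. Aurkb (3.32 ± 0.35), the kinase of the chromosomal passenger complex, Kif23 (2.44 ± 0.26), a motor of the spindle midzone, Prc1 (2.82 ± 0.32), which bundles midzone microtubules, and Plk1 (2.57 ± 0.30), a kinase of mitotic entry, were also higher in donor cells on the log2 scale. Their adjusted p-values in edgeR ran up to 1.71e-08. Of these genes, Prc1 passed the low-count filter only through the donor leptomeningeal libraries, so it is not part of the fairer count above.

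For 3 members the host side rests on 3 UMIs over 4 libraries, so the fitted values are not used as sizes. All 3 passed the low-count filter only through the donor leptomeningeal libraries, where they are high. The intervals below cover counting error only and not the spread between libraries. Ccnb1 had 208 UMIs in donor against 3 UMIs in host leptomeningeal libraries, a ratio of summed counts per total of 16.9 with an exact 95% counting interval of 5.69 to 82.4. Bub1, a spindle checkpoint kinase gene, had 123 against 3 UMIs, a ratio of 9.96 (3.33 to 49.0). Ccne2, a cyclin of the G1 to S step, had 87 against 3 UMIs, a ratio of 7.05 (2.33 to 34.8). All 3 Ccnb1 UMIs of the host leptomeninges were in Control library 1.

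Among replication members, Rrm2, the regulated subunit of ribonucleotide reductase, differed most of those with more than 3 UMIs in each population: 29.2 ± 12.6 CPM in donor and 3.26 ± 3.09 CPM in host leptomeningeal cells, a log2 fold change of 3.58 ± 0.57 (adjusted p = 2.55e-05). Mcm7 averaged 48.8 ± 15.3 CPM in donor and 16.8 ± 2.76 CPM in host leptomeningeal cells (log2 fold change 1.76 ± 0.21, adjusted p = 6.43e-09). Mcm3 differed little: 49.8, 36.2, 52.4 and 51.6 CPM in Mutant and 51.1, 73.4, 63.9 and 59.4 CPM in Control donor libraries, against 45.2 and 44.1 CPM in Mutant and 51.5 and 53.5 CPM in Control host libraries. These overlap, with a log2 fold change of 0.41 ± 0.15 (adjusted p = 0.0329). This call was lost when any of 9 of the 12 libraries was left out (log2 fold changes of 0.35 to 0.46 and adjusted p-values of 0.0132 to 0.142 in edgeR over all 12). Pcna likewise overlapped, at 91.3 to 122 CPM in donor and 95.1 to 131 CPM in host leptomeningeal libraries.

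**Figure D2:**
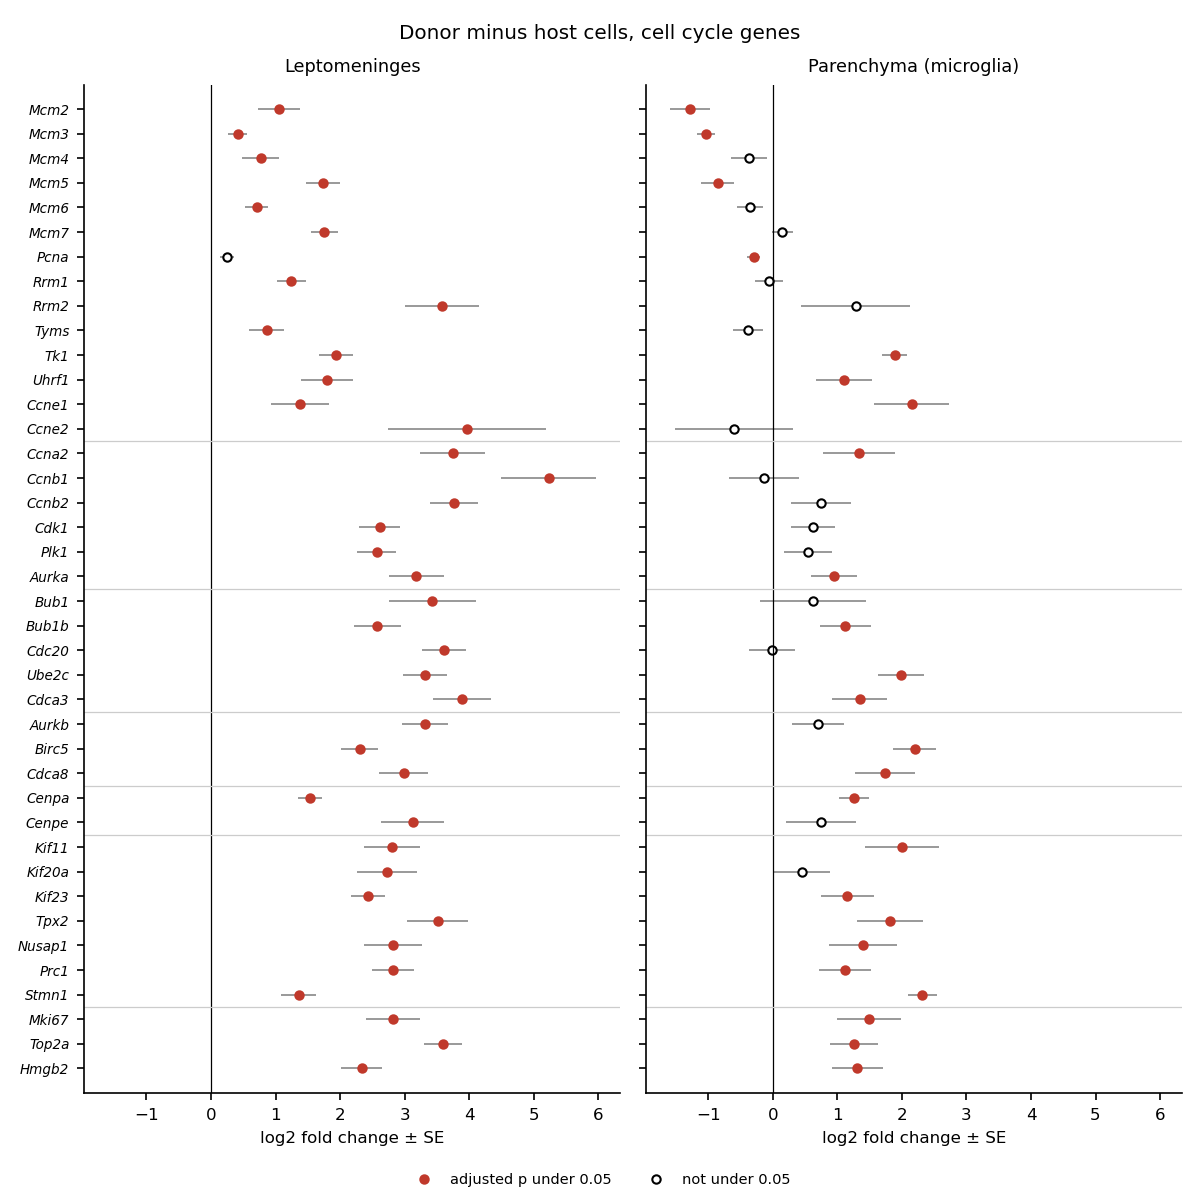
Log2 fold change of donor minus host cells (horizontal axis, ± SE) for each tested cell cycle gene, in the leptomeninges (left) and the parenchyma (right). Genes run by role from replication (top) to chromatin (bottom), filled points have an adjusted p under 0.05. The left panel lies to the right of 0 for all 40 genes, and on the right 20 are filled above 0 and 4, all replication genes, below it.

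The neutrophil precursor, mature neutrophil and monocyte lists were also higher in donor than in host leptomeningeal libraries. The list of 10 precursor genes took 2.03, 1.26, 3.17 and 2.03% of UMIs in Mutant and 2.17, 3.86, 2.33 and 2.80% in Control donor leptomeningeal libraries, against 0.115 and 0.169% in Mutant and 0.214 and 0.0629% in Control host leptomeningeal libraries. Most of its UMIs came from Ngp, Camp, Ltf and Chil3, which averaged 10805.5, 6781.6, 3778.0 and 2001.0 CPM in donor leptomeningeal cells. Its members Elane, Mpo and Prtn3, granule proteases and a peroxidase made by granulocyte and monocyte progenitors, averaged 329.8, 212.4 and 236.6 CPM in donor and 2.56, 1.34 and 5.91 CPM in host leptomeningeal cells. Control library 2 had the highest share of both the precursor list and the cell cycle genes among donor leptomeningeal libraries, and Mutant library 2 the lowest of both. The mature neutrophil and monocyte lists were likewise highest in that Control library and lowest in that Mutant one, so the order is not particular to precursor genes. The monocyte list took 0.294 to 0.677% in donor and 0.0363 to 0.0575% in host leptomeningeal libraries. It shares Chil3 with the precursor list, a gene that averaged 2001.0 CPM in donor and 110.5 CPM in host leptomeningeal cells. Stem and progenitor markers took 0.00436 to 0.00708% of UMIs in donor and 0.00552 to 0.0109% in host leptomeningeal libraries. Within that list Kit averaged 5.93, Myb 6.41 and Flt3 17.5 CPM in donor leptomeningeal cells, against 2.41, 0.898 and 5.87 CPM in host ones, whereas Cd34 averaged 4.92 and Sox4 1.08 CPM in donor cells, against 36.8 and 6.25 CPM in host cells. The part of these cells in the cell cycle result was not tested.

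**Figure D3:**
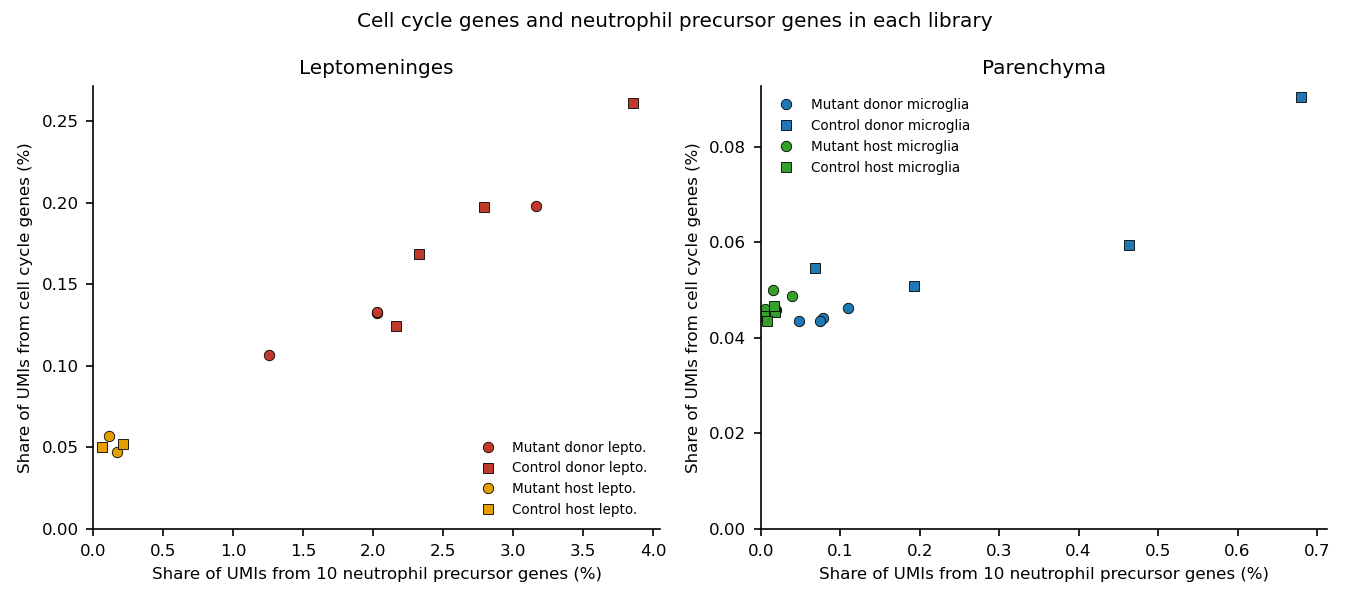
Share of UMIs from 10 neutrophil precursor genes (horizontal axis, percent) and from the 41 cell cycle genes (vertical axis, percent), 1 point per library, circles for Mutant and squares for Control, with leptomeningeal libraries on the left and parenchymal ones on the right (axes differ). The highest point of each panel is a Control donor library, at 3.86% and 0.261% in the leptomeninges and at 0.679% and 0.0903% in the parenchyma.

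Donor leptomeningeal cells also exceeded donor microglia. Here 38 of 40 members were higher and none lower, where 30.5% of all genes were called higher and 31.6% lower, and 26 of the 28 members that pass the filter without the donor leptomeningeal libraries were higher. The comparison uses the same donor leptomeningeal libraries as the one above. Kif23 averaged 41.6 ± 12.96 CPM in donor leptomeningeal cells and 5.76 ± 4.91 CPM in donor microglia (SD, n = 8 each), a log2 fold change of 3.28 ± 0.26 (adjusted p = 3.56e-15). Cenpa, the histone of the centromere, averaged 106.2 ± 26.7 CPM in donor leptomeningeal cells and 23.8 ± 7.603 CPM in donor microglia (2.41 ± 0.17). Unlike against host cells, Pcna was higher, at 109.9 ± 10.7 CPM in donor leptomeningeal cells and 65.8 ± 7.67 CPM in donor microglia (0.99 ± 0.10, adjusted p = 3.62e-12). The exceptions were Stmn1, which encodes a microtubule-destabilising protein (-0.11 ± 0.19, adjusted p = 0.635), and Tk1, thymidine kinase (-0.01 ± 0.17, adjusted p = 0.969). Both values turned above 0 when certain libraries were left out. The libraries did not overlap for 12 of the 28 members, against 10.3% of all genes.

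In the parenchyma the members split. Donor microglia were higher than host microglia for 20 of 40 members and lower for 4, where 33.1% of all genes were called higher and 27.3% lower. Not called were 16 of 40 members and 4879 of 12327 genes, so the share called in either direction is near the background. Of the 28 members that pass the filter without donor leptomeningeal libraries, 13 were higher and 4 lower. All 4 that were lower are replication genes: Mcm2, Mcm3, Mcm5 and Pcna. Of the 20 higher ones, 6 are spindle genes, 3 each act in the checkpoint and on chromatin, and 3 are replication genes (Tk1, Uhrf1 and Ccne1). The libraries did not overlap for 4 members that were higher and 2 that were lower, against 12.5 and 16.1% of all genes.

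Tk1 had 28.6, 21.3, 30.8 and 36.9 CPM in Mutant and 66.8, 40.4, 36.1 and 55.5 CPM in Control donor microglia, against 13.3, 12.5, 11.8 and 8.55 CPM in Mutant and 10.2, 14.7, 11.8 and 8.27 CPM in Control host microglia. Every donor library was above every host library, by a log2 fold change of 1.89 ± 0.19 (adjusted p = 1.36e-11). Tk1 overlaps Afmid on the other strand, and whether counting used strand is not given, so reads of the 2 genes may be mixed. Stmn1 had 50.3, 58.7, 44.7 and 34.9 CPM in Mutant and 12.5, 66.4, 29.5 and 53.8 CPM in Control donor microglia, and 7.23 to 11.8 CPM in host microglia. Its groups did not overlap, and its log2 fold change was 2.32 ± 0.23 (adjusted p = 1.28e-10). Stmn1 is also made by neurons. Neuron markers took 0.0347 to 0.190% of UMIs in donor and 0.00199 to 0.00436% in host microglia. Astrocyte markers took 0.110 to 0.503% in donor and 0.0182 to 0.0234% in host microglia, and oligodendrocyte markers 0.0689 to 0.447% in donor and 0.00903 to 0.0122% in host microglia. Control donor microglia library 1 had the lowest neuron share, 0.0347%, and the lowest Stmn1 level, and Control library 2, at 0.157%, had the highest Stmn1 level. Mutant donor microglia library 3 had the highest neuron share, 0.190%, with Stmn1 at 44.7 CPM. Control library 4, with a neuron share of 0.0725%, had Stmn1 at 53.8 CPM. The part of these cells in the differences was not tested.

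Birc5, the survivin gene of the passenger complex, averaged 15.6 ± 6.68 CPM in donor and 3.93 ± 1.27 CPM in host microglia (2.20 ± 0.33, adjusted p = 9.31e-07). Ube2c, the ubiquitin-conjugating enzyme of the anaphase-promoting complex, averaged 23.4 ± 20.1 CPM in donor and 6.07 ± 2.91 CPM in host microglia (1.99 ± 0.36), with Control donor library 4 at 71.1 CPM. Cenpa (1.26 ± 0.23) and Ccne1 (2.15 ± 0.57), a cyclin of the G1 to S step, were also higher on the log2 scale, with overlapping libraries. H2az1, the gene under which RefSeq now lists H2afz, averaged 141.6 ± 23.6 CPM in donor and 66.3 ± 11.5 CPM in host microglia, and its libraries did not overlap (log2 fold change 1.25 ± 0.11, adjusted p = 4.7e-14).

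Mcm3 had 35.5, 18.1, 29.8 and 12.3 CPM in Mutant and 29.2, 39.0, 39.4 and 38.15 CPM in Control donor microglia, against 63.1, 73.1, 57.8 and 82.4 CPM in Mutant and 71.7, 66.3, 70.0 and 78.5 CPM in Control host microglia. All donor libraries were below all host libraries, with a log2 fold change of -1.03 ± 0.14 (adjusted p = 1.83e-08). Mcm2 averaged 8.30 ± 6.77 CPM in donor and 22.7 ± 6.06 CPM in host microglia (-1.28 ± 0.31, adjusted p = 0.000514), with Control donor library 1 at 20.9 CPM inside the host range. Mcm5 (-0.85 ± 0.25) and Pcna (-0.29 ± 0.10) were lower by smaller amounts, and the Pcna call was lost with DESeq2's size factors (-0.21, adjusted p = 0.0568) and with DESeq2's Wald test (-0.22, adjusted p = 0.0602). Pcna has processed copies, Pcna-ps1 and Pcna-ps2, that could share its reads.

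The count in the parenchyma fell when a pair of libraries was left out. Control donor microglia libraries 3 and 4 had 0.463 and 0.679% of UMIs from neutrophil precursor genes, where the other 6 donor microglia libraries had 0.0480 to 0.193% and host microglia 0.00449 to 0.0390%. Without these 2, a choice made after seeing the data that leaves 2 Control donor microglia libraries, 14 members were called in place of 24: 10 higher and the same 4 lower. No other pair was left out, so the effect of these libraries cannot be told apart from that of having fewer libraries. With all libraries kept and the groups of the contrast fitted alone, 14 of 21 members tested were called. The calls lost were Aurka, Bub1b, Ccna2, Cdca3, Kif11, Kif23, Mki67, Nusap1, Top2a and Uhrf1. Other than Kif11, these had log2 fold changes of 0.69 to 1.15 without the pair, against 0.95 to 1.49 with it. Top2a went to a log2 fold change of 0.98 (adjusted p = 0.0650) and Mki67 to 1.03 (adjusted p = 0.171; 1.14 and 0.0642 without library 4 alone). Kif11, a spindle motor gene with 17 UMIs in all of donor microglia, had 0 UMIs in Control donor libraries 1 and 2. Its fitted log2 fold change of -0.66 (adjusted p = 0.651) without the pair, against 2.00 with it, thus rests on a group with 0 UMIs. It is no measure of size. Tk1 (1.96), Stmn1 (2.36), Birc5 (2.05), Ube2c (1.67) and Mcm3 (-1.04) kept their calls.

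**Figure D4:**
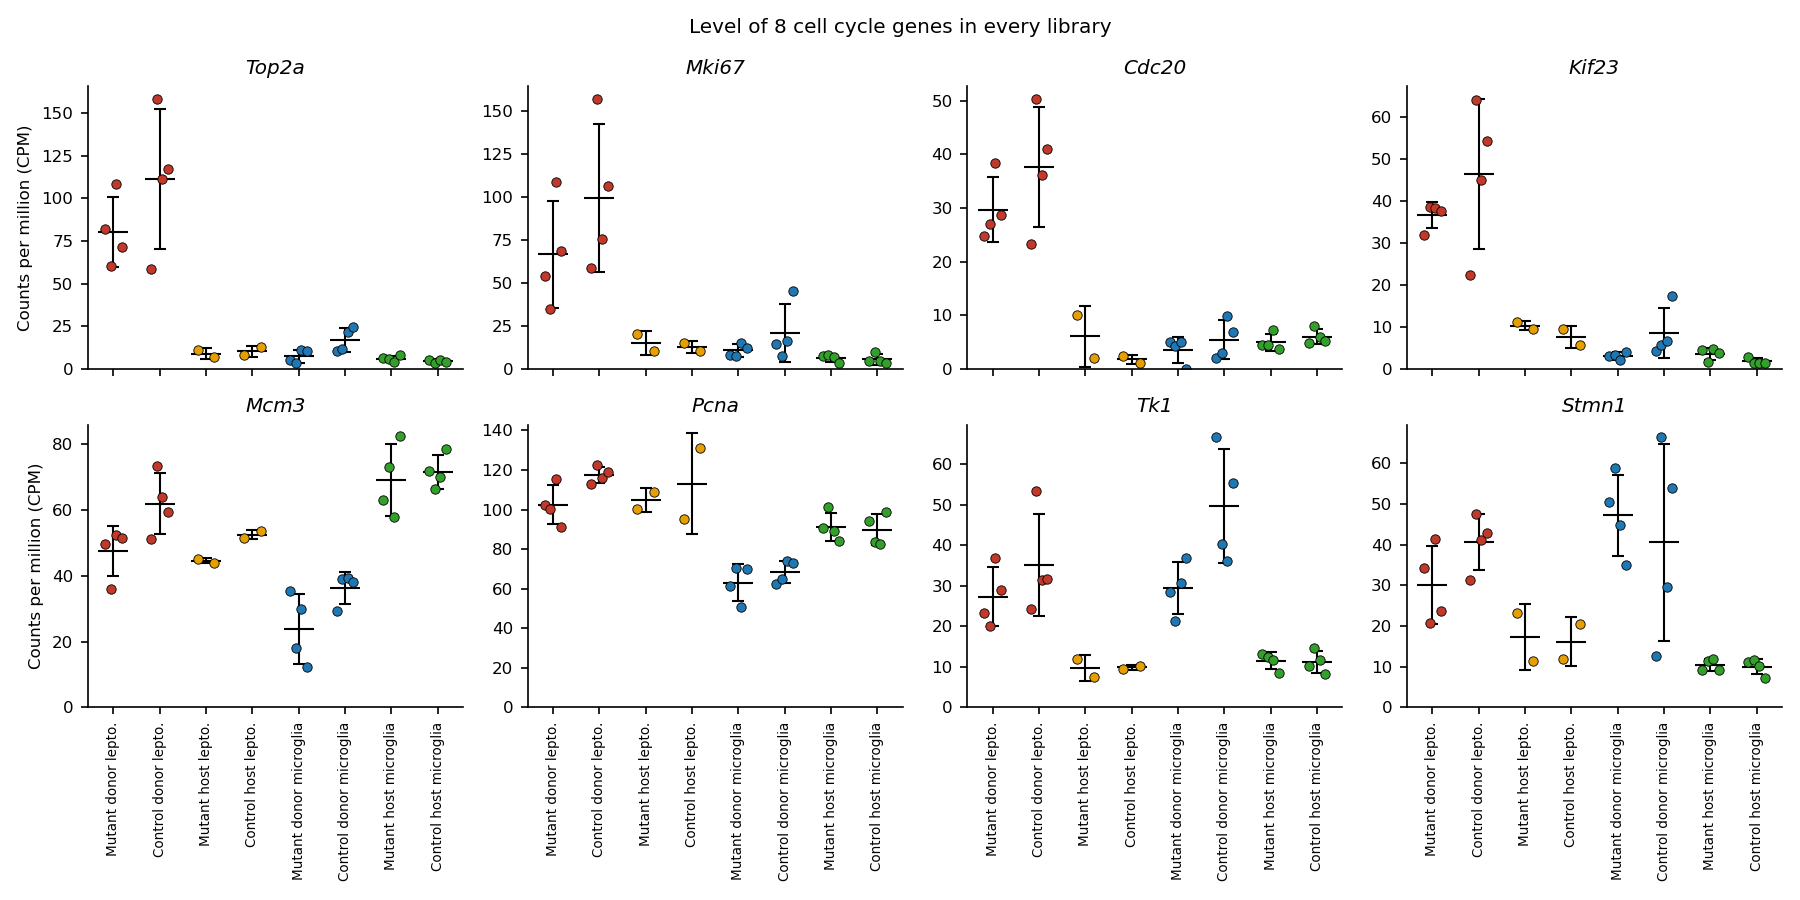
Level of 8 members (vertical axes, CPM, each from 0) in every library of the 8 groups, with bars for mean ± SD. Top2a, Mki67, Cdc20 and Kif23 stand highest in the 2 donor leptomeningeal groups, Mcm3 and Pcna are low in donor microglia, and Tk1 and Stmn1 are low in both host populations.

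Among host cells, leptomeningeal cells were higher than microglia for 12 of 40 members and lower for 4, where 31.1 and 25.7% of all genes were called, so the share of members called higher is near the background. Cenpa led, at 43.6 ± 4.25 CPM in host leptomeningeal cells and 11.3 ± 2.87 CPM in host microglia (SD, n = 4 and 8), a log2 fold change of 2.14 ± 0.22 (adjusted p = 2.06e-10). Kif23 (2.00 ± 0.37), Birc5 (1.86 ± 0.39), Hmgb2 (1.73 ± 0.40), a chromatin protein gene, Mcm6 (0.88 ± 0.19) and Pcna (0.44 ± 0.11) were also higher. Mcm7 was lower, at 16.8 ± 2.76 CPM in host leptomeningeal cells and 41.6 ± 5.28 CPM in host microglia (-1.11 ± 0.22, adjusted p = 2.5e-05), although it overlaps Cops6 and Ap4m1 on the other strand. The count of calls, 16 in all, was 9 without Control host leptomeningeal library 1 and 10 without Mutant library 1. Without Control host leptomeningeal library 1, Ccne1 (2.31 ± 0.62 with it) had a log2 fold change of 1.65 (adjusted p = 0.23). Ccnb1 had 3 UMIs in host leptomeningeal cells and 37 UMIs in host microglia, a ratio per total of 0.297 (0.0586 to 0.939).

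The difference between donor and host cells was itself larger in the leptomeninges than in the parenchyma for 25 of 40 members and smaller for 1, by the interaction of origin and compartment, where 19.1 and 23.2% of all genes were called. Of the 28 that pass the filter without donor leptomeningeal libraries, 19 were larger and 1 smaller. Cdc20 had an interaction of 3.62 ± 0.51 on the log2 scale (adjusted p = 1.54e-07), since its donor minus host difference was 3.61 in the leptomeninges and -0.01 in the parenchyma. Without Mutant host leptomeningeal library 1 it was 4.34. Mcm3 (1.44 ± 0.21), Mcm5 (2.59 ± 0.36) and Mcm2 (2.33 ± 0.45) were higher in donor cells of the leptomeninges and lower in donor cells of the parenchyma. Mcm7 (1.60 ± 0.27), Aurkb (2.61 ± 0.55) and Ccnb2 (3.01 ± 0.60) also passed. Stmn1 was the exception, with -0.96 ± 0.37 (adjusted p = 0.0341), a call lost when any of 8 of the 28 libraries was left out (log2 values of -1.19 to -0.67 over all 28). For Birc5 (0.10 ± 0.56), Tk1 (0.05 ± 0.34) and Cenpa (0.27 ± 0.30) the interaction did not pass.

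No member passed the test between Mutant and Control in any of the 4 populations. In donor microglia, edgeR called 0 of 40 members and 0.0892% of all genes, and the smallest adjusted p of a member was 0.29. The share over all genes rests on Control donor microglia library 2: without it 544 of 12232 genes (4.45%) were called, and still 0 members, where leaving out any other library called 3 to 18 genes. Even so, 33 of 40 had a log2 fold change below 0, against 49.6% of all genes, with a median of -0.52. At an unadjusted p under 0.05 there were 12 of 40 members (30.0%), against 10.2% of all genes. Of the 28 members that pass the filter without donor leptomeningeal libraries, 22 were below 0 and 10 had an unadjusted p under 0.05. All these values come from the same libraries, so their signs are not separate observations. DESeq2's Wald test called 1 member, Ube2c (-1.38, adjusted p = 0.0482).

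Aurkb had 4.93, 2.13, 0.994 and 2.05 CPM in Mutant and 10.4, 5.78, 6.56 and 13.9 CPM in Control donor microglia. The groups did not overlap, and the log2 fold change was -1.74 ± 0.60 (adjusted p = 0.29). Ube2c had 9.87, 7.47, 17.9 and 16.4 CPM in Mutant and 23.0, 18.8, 23.0 and 71.1 CPM in Control donor microglia (-1.41 ± 0.47, adjusted p = 0.298). Tk1 (-0.76 ± 0.27) and Mcm5 (-1.19 ± 0.45) had overlapping libraries and adjusted p-values in edgeR of 0.312 and 0.363. Mutant libraries lay below all Control libraries in CPM for 4 members, which also include Prc1 and Kif23, against 2.07% of all genes. Prc1 had 3, 3, 2 and 0 UMIs in Mutant and 2, 5, 2 and 7 UMIs in Control libraries. Kif23 had 3, 3, 2 and 2 UMIs in Mutant and 2, 4, 4 and 10 UMIs in Control libraries, and Aurkb 5, 2, 1 and 1 against 5, 4, 4 and 8 UMIs. These low counts overlap, so the order in CPM also depends on depth. The neutrophil precursor list took 0.0480 to 0.110% of UMIs in Mutant and 0.0681 to 0.679% in Control donor microglia, and astrocyte markers 0.278 to 0.469% in Mutant and 0.110, 0.503, 0.132 and 0.183% in Control libraries 1 to 4. Neuron markers took 0.117 to 0.190% in Mutant and 0.0347, 0.157, 0.0477 and 0.0725% in Control libraries, and oligodendrocyte markers 0.187 to 0.447% in Mutant and 0.0720, 0.403, 0.0689 and 0.131% in Control libraries. In all 3 lists Control library 2 lay above the lowest Mutant library and the other Control libraries lay below all Mutant ones, and the part of these cells in the values was not tested. Ccne2 had 0 UMIs in Mutant and 5 UMIs in Control donor microglia, all 5 of them in library 4.

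In donor leptomeningeal cells edgeR called 0 of 40 members and 0.0487% of all genes. All 40 had a log2 fold change below 0, against 55.0% of all genes, with a median of -0.44 and a range of -0.85 to -0.10. The libraries overlapped for every member, where 1.37% of all genes had Mutant above Control in all libraries and 2.25% below. At an unadjusted p under 0.05 there were 10 of 40 members (25.0%), against 4.84% of all genes. DESeq2's Wald test called none. Rrm1, the large subunit of ribonucleotide reductase, had 23.8, 20.2, 43.7 and 28.6 CPM in Mutant and 33.5, 60.3, 32.0 and 48.0 CPM in Control libraries (-0.56 ± 0.21). Aurkb (-0.58 ± 0.24), Mcm7 (-0.44 ± 0.18) and Mcm3 (-0.35 ± 0.15) were the next by unadjusted p, all with an adjusted p of 1.0 in edgeR. All 40 values come from the same 8 libraries, so their signs are not 40 separate observations, and Control library 2, at 0.261%, and Mutant library 2, at 0.107%, set the ends of the range. The precursor list took 1.26 to 3.17% in Mutant and 2.17 to 3.86% in Control donor leptomeningeal libraries.

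With both donor populations averaged, which uses the same libraries again, 0 of 40 members and 0.114% of all genes were called. The median log2 fold change was -0.50, 38 of 40 were below 0, against 52.9% of all genes, and 15 of 40 had an unadjusted p under 0.05, against 9.01% of all genes. Of the 28 members that pass the filter without donor leptomeningeal libraries, 26 were below 0 and 13 had an unadjusted p under 0.05. Aurkb came closest (-1.16 ± 0.32, adjusted p = 0.14), followed by Ube2c (-0.93 ± 0.27, adjusted p = 0.203). Without Control donor microglia library 2 Aurkb passed, at -1.23 (adjusted p = 0.0431), where 219 genes (1.79%) were called, and with DESeq2's Wald test Ube2c passed, at -0.89 (adjusted p = 0.0288).

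Host cells do not come from the donor marrow, and they differ between Mutant and Control only in the marrow the host received. In host microglia 0 of 40 members and 0.0649% of all genes were called, the median log2 fold change was 0.22, and 3 of 40 had an unadjusted p under 0.05 (7.50%, against 3.76% of all genes). Here 30 of 40 members had a log2 fold change above 0 and 10 below it (25.0%, against 45.55% of all genes). A lean of the signs to 1 side was thus not limited to donor cells. Aurka had 6.03, 4.01, 4.60 and 2.44 CPM in Mutant and 2.91, 1.78, 1.96 and 1.38 CPM in Control host microglia, which overlap (1.16 ± 0.44, adjusted p = 1.0). In host leptomeningeal cells, with 2 libraries each, 0 of 40 members and 0% of all genes were called, the median was 0.14, and Aurkb alone had an unadjusted p under 0.05 (-1.94 ± 0.82, adjusted p = 0.815). There 16 of 40 members were below 0 (40.0%, against 47.6% of all genes). DESeq2 called none of the members in either host population. The genotype difference of donor microglia minus that of host microglia was called for 0 of 40 members and 0.0324% of all genes in edgeR, with Kif23 at -2.53 ± 0.76 and Ube2c at -2.41 ± 0.69 (adjusted p = 0.51 for both), where 9 of 40 had an unadjusted p under 0.05, against 6.04% of all genes, and DESeq2 called Ube2c (-2.40, adjusted p = 0.0302). The genotype difference of donor leptomeningeal cells minus that of donor microglia was called for 0 of 40 members and 0% of all genes, with 2 of 40 at an unadjusted p under 0.05 (5.00%, against 6.38% of all genes) and Rrm1 first (-1.22 ± 0.41, adjusted p = 0.696). Without Control donor microglia library 2 these interactions called 74 and 149 genes, and 0 members in both.

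**Figure D5:**
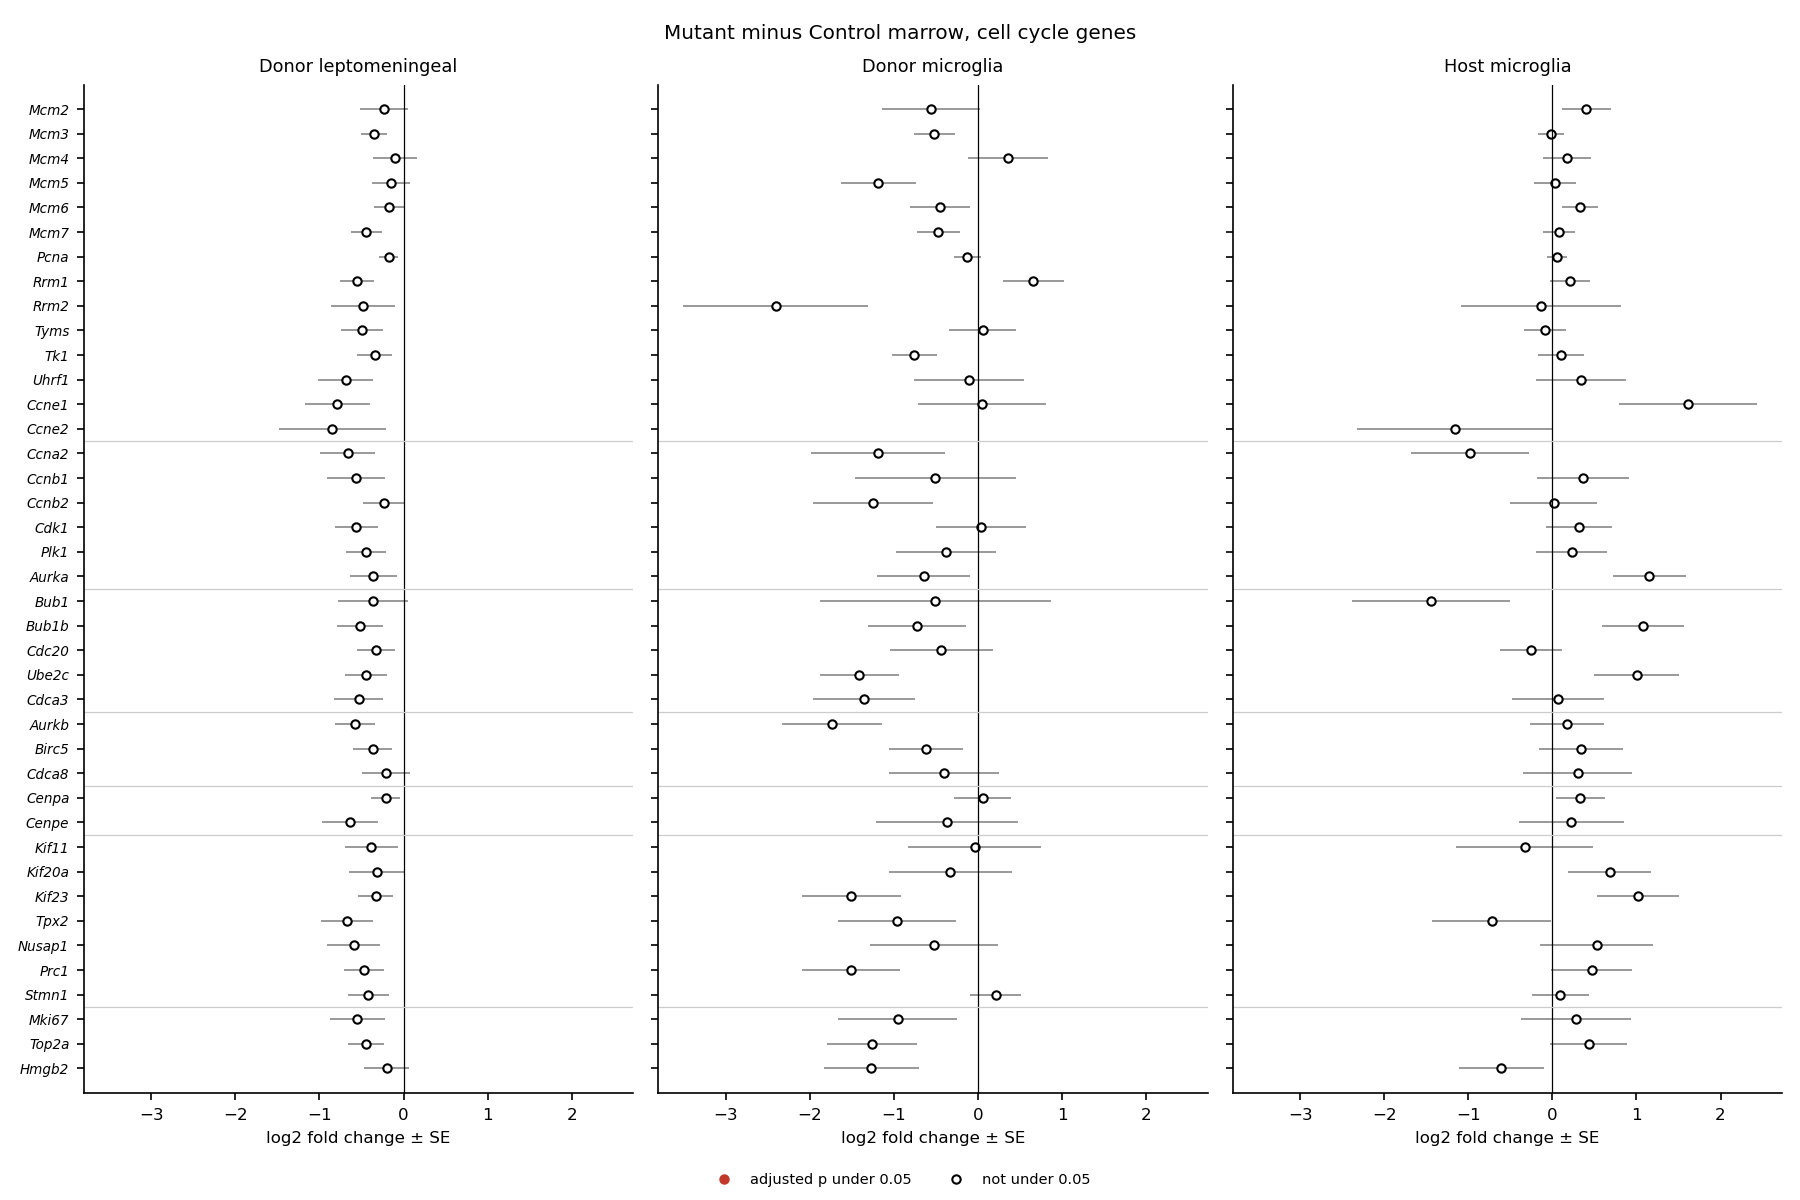
Log2 fold change of Mutant minus Control (horizontal axis, ± SE) for each tested cell cycle gene in donor leptomeningeal cells, donor microglia and host microglia. Open points did not reach an adjusted p under 0.05, which holds for every point. Ccne2 is left out of the middle panel because Mutant donor microglia had 0 UMIs of it.

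A wider list of cell cycle genes that are not members, 128 with a row and 114 tested, gave the setting. Donor leptomeningeal cells were higher than host ones for 73 (64.0%, against 16.9% of all genes) and lower for 4, and higher than donor microglia for 85 (74.6%, against 30.5%) and lower for 7. Its mitotic factors were higher in donor leptomeningeal than in host leptomeningeal cells for 42 of 46, and its G1 regulators for 9 of 25. Genes of this list that passed the filter only through the donor leptomeningeal libraries, where they are high, were not set apart. The counts of genes higher in donor leptomeningeal cells may therefore be too large, also for the CDK inhibitors below. Between donor and host microglia, 35 of the wider list were higher (30.7%, against 33.1% of all genes) and 15 lower, so the share called higher is near the background. No gene of the wider list passed between Mutant and Control in any population.

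Between donor and host cells Cdkn1a, the p21 inhibitor of cyclin-dependent kinases, was lower in both compartments. It averaged 474.9 ± 54.2 CPM in donor and 1223.8 ± 185.4 CPM in host leptomeningeal cells, a log2 fold change of -1.13 ± 0.11 (adjusted p = 1.4e-11). In the parenchyma it averaged 320.2 ± 39.6 CPM in donor and 2138.6 ± 250.7 CPM in host microglia (-2.57 ± 0.10, adjusted p = 3.58e-26). Between donor populations it was higher in leptomeningeal cells than in microglia (0.81 ± 0.10, adjusted p = 4.92e-10). Of 7 CDK inhibitors tested, 4 were higher in donor than in host leptomeningeal cells (Cdkn1b, Cdkn2c, Cdkn2d and Cdkn3) and 2 lower (Cdkn1a and Cdkn2a), and Cdkn2d averaged 78.9 ± 18.5 CPM in donor and 26.5 ± 7.52 CPM in host leptomeningeal cells (1.84 ± 0.18). Cdk6, a kinase partner of D-type cyclins, was lower in donor than in host microglia (-1.85 ± 0.14), and Ccnd1, the cyclin D1 gene, averaged 243.1 ± 36.5 CPM in donor and 423.7 ± 40.1 CPM in host microglia (-0.64 ± 0.09). Ccnd3, the cyclin D3 gene, averaged 439.0 ± 102.6 CPM in donor and 165.1 ± 11.6 CPM in host leptomeningeal cells (1.65 ± 0.15), and 91.5 ± 20.2 CPM in donor microglia. E2f2, an activator of replication genes, averaged 55.4 ± 17.2 CPM in donor and 7.34 ± 3.17 CPM in host leptomeningeal cells (3.15 ± 0.26), whereas E2f1 had 0.45 ± 0.21 (adjusted p = 0.109). Myc was lower in donor leptomeningeal cells than in donor microglia (15.5 ± 2.60 against 39.0 ± 7.46 CPM, -1.07 ± 0.16). Ncaph, a condensin subunit gene, was higher in donor than host leptomeningeal cells (0.99 ± 0.21) and lower in donor than host microglia (-1.97 ± 0.20).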

How the data were processed

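The authors deposited 1 table of genes by symbol. Per the file headers, each of the 28 libraries has 3 columns. The column named raw holds counts of UMIs and was used here. The deposited column named normalized holds signal (the count over a library size factor), and the one named rld holds log2 values, and neither was used. The counts were made on mm10, according to the submitters' processing notes. Aligner and strand setting are not given in the sources used here. CPM was computed from the counts over each library's total.

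Genes were filtered with filterByExpr over the 8 groups, which left 12327 genes, scaled by TMM and tested with edgeR 4.0.16 (R 4.3.3, limma 3.58.1) by the robust quasi-likelihood test with 1 mean per group over all 28 libraries. P-values were adjusted by Benjamini-Hochberg over all genes tested, with a threshold of 0.05, and SE is the log2 fold change over the square root of F. The 12 contrasts were Mutant minus Control in 4 populations and in both donor populations, donor minus host and leptomeningeal minus parenchymal cells averaged over genotypes, and 3 interactions. The test was checked on simulated counts. DESeq2 1.42.0 was an alternative, beside other scaling, no filter, the groups of a contrast fitted alone, a replicate block and each library left out.

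Statistics are given for up to 8 members per contrast by smallest adjusted p, or for the 4 with the smallest unadjusted p where none passed, and for up to 4 genes of the wider list. Cdkn1a, Cdkn1b, Ccnd1, Ccnd2, Ccnd3, E2f1 and Myc may be named in any contrast. Other genes given with statistics were chosen after their values were seen. Members, lists and the printed promoters were chosen with earlier results of these data known. Genome positions of overlapping genes come from GENCODE M21. No libraries held identical counts.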

Additional observations from a re-analysis of the deposited data

Results flagged for a closer look

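In groups of 4 libraries, 9 of 134 gene and group pairs had a library whose gap to its nearest neighbour, over the group's range, was above Dixon's 95% critical value, which chance passes in about 1 in 20 groups. Mutant donor leptomeningeal cells had 4 of them: library 2 was low for Mcm3 (36.2 CPM), library 3 was high for Plk1 (56.7 CPM) and Cenpa (125.5 CPM), and library 1 was low for Kif23 (32.0 CPM). Control donor leptomeningeal library 2 was high for Mcm6 (68.2 CPM). In Control donor microglia, library 1 was low for Mcm3 (29.2 CPM) and library 4 was high for Ccna2 (24.3 CPM) and Ube2c (71.1 CPM). Control host microglia library 4 was high for Mcm4 (19.6 CPM). No explanation of these values was tested.

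The donor minus host difference was not the same in the leptomeninges and the parenchyma for 26 members, by the interaction of origin and compartment. On the log2 scale the interaction was 3.62 for Cdc20, 1.44 for Mcm3, 2.59 for Mcm5, 1.60 for Mcm7, 2.33 for Mcm2, 2.61 for Aurkb, 3.01 for Ccnb2 and -0.96 for Stmn1. The fitted 5.37 for Ccnb1 rests on a group with 0 UMIs and is no measure of size. Outside the members it was 2.96 for Ncaph, 1.44 for Cdkn1a, 1.91 for Cdk6 and 2.81 for E2f2.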

How the results depend on the processing

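Of the values of genes given with statistics, 2258 stayed on their side of the threshold, 26 no longer passed, 7 newly passed and 20 changed sign. Kif11 turned to -0.66 in donor minus host microglia without Control donor microglia libraries 3 and 4. The Control donor libraries left then had 0 UMIs of Kif11, so this value is no measure of size. The other sign changes were in uncalled values near 0. Tk1 in donor leptomeningeal cells minus donor microglia became 0.0082 with no low-count filter and ran from -0.16 to 0.037 with 1 library left out, and Stmn1 from -0.28 to 0.041. In the interaction of origin and compartment Tk1 became -0.030 with DESeq2's size factors, -0.047 with its Wald test, -0.0079 with the replicate block, -0.031 without those 2 libraries and -0.12 to 0.25 with 1 library left out, and Birc5 became -0.080 with the replicate block and -0.065 to 0.30 with 1 library left out. DESeq2's Wald test called 1 member in place of 0 between genotypes in donor microglia, in both donor populations averaged and in the donor minus host microglia interaction, in each case Ube2c, among 18, 14 and 22 members with an adjusted p. Leaving out 1 library at a time gave 0 to 1 called member for the average of both donor populations, 18 to 24 for donor against host microglia, 34 to 39 for donor against host leptomeningeal cells, 38 for donor leptomeningeal cells against donor microglia, 9 to 15 for host leptomeningeal cells against host microglia and 21 to 30 for their interaction. Donor against host microglia gave 14 members with those groups fitted alone, where 21 members were tested, and 14 without Control donor microglia libraries 3 and 4. With total UMIs scaled by DESeq2's size factors the member share became 0.0448% and 0.0427% in Mutant and Control host leptomeningeal cells, 0.0391% in Mutant donor microglia, and 0.0351% and 0.0325% in Mutant and Control host microglia. Without Hmgb2 and Stmn1 the same 5 shares became 0.0414%, 0.0394%, 0.0339%, 0.0339% and 0.0310%. DESeq2's size factors moved the median of all genes to 0.12 for donor minus host microglia, 0.10 for host leptomeningeal cells minus host microglia and -0.13 for the interaction, against 0.04, 0.08 and -0.05. Over all genes DESeq2's Wald test called 81 in place of 11 between genotypes in donor microglia, 106 in place of 14 in both donor populations, 25 in place of 0 in host leptomeningeal cells, 15 in place of 8 in host microglia and 14 in place of 4 in the donor minus host microglia interaction. The labels do not say whether libraries with the same replicate number share a mouse. Deviations of same-numbered libraries correlated at -0.117 to 0.093 in 36 pairs of the same genotype. In 14 pairs of the same population and other genotype they correlated at -0.182 to 0.125. With few libraries per group, such values cannot show whether the numbers pair samples. With the number as a block 37 members were called for donor against host leptomeningeal cells, 24 for donor against host microglia, 38 for donor leptomeningeal cells against donor microglia, 17 for the host cells and 25 for the interaction. Every genotype comparison had 0, and Mcm3 in donor against host leptomeningeal cells became 0.34 (adjusted p = 0.124) and lost its call. Without Control donor microglia library 2, edgeR called 544, 219, 74 and 149 genes between genotypes in donor microglia, in both donor populations and in the genotype interactions with host microglia and with donor leptomeningeal cells, against 11, 14, 4 and 0 with it. The cause of these shifts was not tested. Depth limits members with few UMIs, such as Cenpf, Ccnb1, Bub1 and Ccne2.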
